A study of Arabidopsis thaliana with 3 samples.

Results

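Glutathione transferases (GSTs) are enzymes that join the tripeptide glutathione to reactive or foreign molecules, and they were examined here as the places where the chromatin protein AtDEK2 was or was not enriched. Members were nuclear protein-coding genes of Arabidopsis thaliana. Their symbol in the reference gene table had to be GSTU, GSTF, GSTZ, GSTT or GSTL followed by a number. This rule uses no measured value, but the members were chosen with earlier results of these data known. The rule gave 47 of 27444 genes. Of these, 27 belong to the tau class (GSTU), 12 to phi (GSTF), 3 to theta (GSTT), 3 to lambda (GSTL) and 2 to zeta (GSTZ). A further 2 genes carry such a name only among their synonyms or with a prefix, ERD9 (AT1G10370, also GSTU17) and ATGSTF13 (AT3G62760), and are given apart.

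Tau and phi GSTs are the large plant classes, and many of their genes respond to pathogens, salicylic acid, herbicides or oxidative stress. Theta and zeta GSTs also occur in animals, where theta enzymes reduce organic hydroperoxides and zeta enzymes act in tyrosine breakdown, and lambda GSTs remove glutathione from conjugated flavonols rather than adding it. Plant GST genes commonly lie side by side as copies of one another, which makes short reads harder to place. DEK proteins bind chromatin and histones, and the title of the series names AtDEK2 as a reader of histone marks with a part in plant immunity.

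The chromatin came from 14-day-old seedlings of the dek2-1 mutant that carried a DEK2-YFP fusion driven by the DEK2 promoter (pDEK2::DEK2-YFP), so all samples share the mutation and the transgene, and whole seedlings mix many cell types. An antibody against GFP, which also binds YFP, was used for 2 immunoprecipitates. An input without antibody was made from the same genotype, and its values were not used here. No immunoprecipitate of plants without the tagged protein was analysed here, and nothing in the labels says whether the replicates came from plants grown apart.

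The authors' list for replicate 1 held 25742 peaks and that for replicate 2 held 13307. The lists differ in what they admit, since 24.5% of replicate 1 peaks but 4.63% of replicate 2 peaks had a fold enrichment under 1.6. The fold enrichment is the authors' value for each peak, the height at its summit over a modelled local background. The sources used here do not give the read depth. A gene was counted when a peak summit lay inside it or within 500 bp of either end, and a replicate 1 peak is called shared where the overlap with a peak of replicate 2 made up 50% or more of the narrower one. With 2 samples in a single group no test between conditions exists, so counts are set beside all protein-coding genes and beside the number that genes of the same length would give. Intervals are 95% Wilson intervals that cover counting error only, and neighbouring genes are not independent.

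A larger share of GST genes than of genes of their length had a replicate 1 summit, whereas the counts for replicate 2 and for shared summits were close to or below those of genes of their length. In replicate 1, 37 of 47 GST genes had a summit (78.7%, 65.1 to 88.0), against 66.7% of all protein-coding genes and 28.8 expected from genes of the same length. In replicate 2, 15 had one (31.9%, 20.4 to 46.2), against 37.0% of all genes and 15.5 expected. A shared summit lay at 12 (25.5%, 15.3 to 39.5), against 34.2% of all genes and 14.3 expected. That count was 2 against 6.86 expected when the overlap had to make up 50% of both peaks, and 3 against 5.17 when a −log10 q of at least 5 was asked of both lists. None of these differences was tested. GST genes are short, with a median length of 1381 bp against 2078 bp for all protein-coding genes, and the expected numbers take this into account.

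Summits of both lists, whether or not the peaks overlapped, lay at 13 GST genes against 35.3% of all genes and 14.7 expected. Another 24 had summits in replicate 1 only, against 31.3% of all genes and 14.1 expected. GSTF5 and GSTU11 had a replicate 2 summit and none in replicate 1, a state found in 1.71% of all genes. No summit of either list lay at 8 GST genes (GSTU4, GSTU15, GSTU16, GSTU21, GSTU28, GSTF3, GSTF4 and GSTF11), against 31.6% of all genes and 17.3 expected. Enrichment too weak for the authors' lists would not be seen at these genes.

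**Figure D1:**
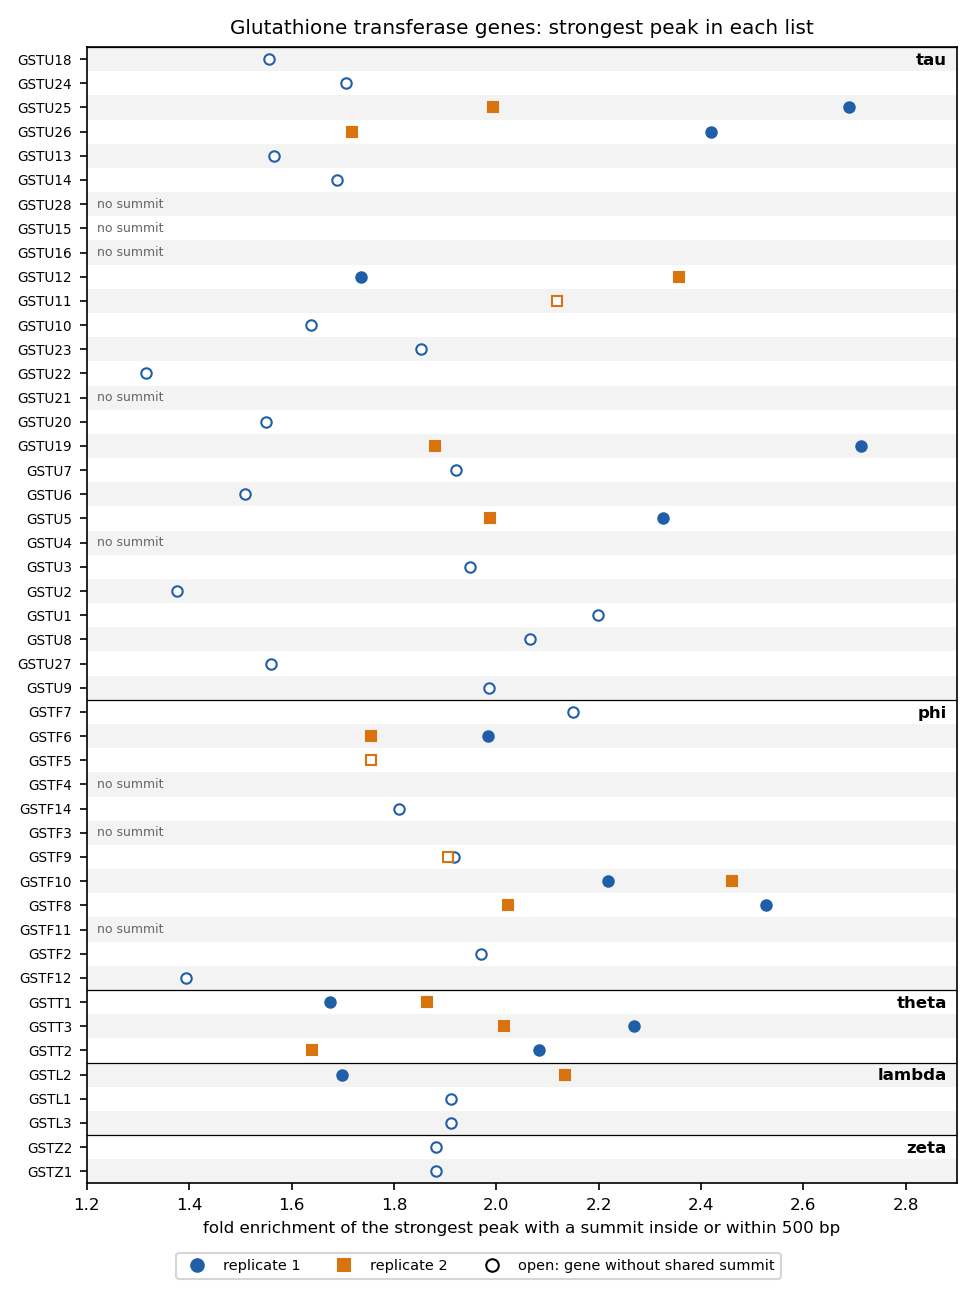
Fold enrichment (horizontal axis) of the strongest peak at each of the 47 GST genes (rows, by class) in replicate 1 (circles) and replicate 2 (squares). Filled symbols mark the 12 genes with a shared summit, and GSTU19 and GSTU25 have the highest replicate 1 values, 2.71 and 2.69.

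The enrichment at GST genes was modest in both lists, and close to that at all protein-coding genes with a summit. The strongest fold per gene had a median of 1.91 at GST genes and 1.93 at all genes in replicate 1. In replicate 2 these medians were 1.99 and 2.04. The 59 distinct replicate 1 peaks at members had folds from 1.32 to 2.71 with a median of 1.70, against a median of 1.82 and a maximum of 4.17 over the whole list. The 15 distinct replicate 2 peaks ran from 1.62 to 2.46 with a median of 1.99, against 2.02 and 4.98. In replicate 2 the fold and p-value of each of these peaks can be solved for a whole number of fragments at the summit. They had 44 to 79 fragments over a background of 22.1 to 37.3.

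Among the 27 tau genes 5 had a shared summit, against 7.55 expected, while 21 had a replicate 1 summit against 15.5 expected and 6 a replicate 2 summit against 8.22. Tau enzymes are the main detoxifying GSTs of plants. GSTU19 (AT1G78380), one of the most active tau enzymes on model substrates, had the highest replicate 1 fold of the family. Its peak spans chr1:29486024-29486754 with a fold of 2.71 in replicate 1, and its partner chr1:29486126-29486378 had 1.88 in replicate 2, or 44 fragments over 22.9. The summits lay 42 and 57 bp outside the lower-coordinate end of the gene, and no other gene lay within 500 bp of them.

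GSTU25 and GSTU26 lie side by side with GSTU24. GSTU24 and GSTU25 are known for acting on the explosive trinitrotoluene. The GSTU25 peak (chr1:5873208-5874165) had 2.69 in replicate 1 and 1.99 in replicate 2, with summits 377 and 424 bp beyond the gene. The GSTU26 peak (chr1:5876333-5877554) had 2.42 and 1.72, with summits 90 and 254 bp inside the gene. Replicate 1 thus had the higher fold at both genes, and GSTU24 had only a replicate 1 summit, of 1.71. The median fold was 1.82 and 2.02 over the whole lists, but 2.08 in replicate 1 and 2.03 in replicate 2 over all shared peaks. Which replicate is higher thus depends on the peaks taken. A higher fold in either replicate is not by itself a property of the gene.

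GSTU5 (AT2G29450), which was first described as an auxin-responsive gene, had a shared peak at chr2:12624348-12624798 with folds of 2.33 and 1.99. Its summits lay 166 and 37 bp inside the gene. GSTU12 (AT1G69920) was the only tau gene whose shared peak was higher in replicate 2, with 1.74 in replicate 1 (chr1:26334218-26334837) and 2.36 in replicate 2, where 55 fragments stood over a background of 22.8. Its neighbour GSTU11 had a replicate 2 peak of 2.12 (chr1:26337129-26337557) with no partner in replicate 1, the only replicate 2 peak at a GST gene without one.

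Of the 12 phi genes 3 had a shared summit against 3.68 expected, 8 had a replicate 1 summit against 7.45, and 5 a replicate 2 summit against 4.01. GSTF8 (AT2G47730), a widely used marker of early defence and oxidative stress, lay under the widest shared peak of the family. It covered 2615 bp (chr2:19557470-19560084) with a fold of 2.53 in replicate 1, and its summit lay 282 bp outside the gene, where the auxin-related gene GH3.9 and a tRNA gene are also within 500 bp. Replicate 2 had 2 smaller peaks under it. One had a fold of 1.62 and a summit 203 bp outside the gene, and the other (chr2:19557815-19558034) had 2.02 and a summit 1577 bp inside.

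GSTF10 (AT2G30870), a dehydration-induced gene also called ERD13, had the highest replicate 2 fold of the family. That peak (chr2:13141126-13141582) had a fold of 2.46, with 79 fragments over 31.5, and its summit lay 48 bp inside the gene. The matching replicate 1 peak (chr2:13140075-13141675) had 2.22. This peak also overlapped a second replicate 2 peak of 1.91, whose summit lay 168 bp beyond the neighbouring gene GSTF9. GSTF9 thus had summits in both lists (1.92 and 1.91) without a shared one of its own.

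GSTF6 (AT1G02930), which has been placed in the synthesis of the phytoalexin camalexin, had a shared peak with folds of 1.98 (chr1:662057-662844) and 1.75. Its replicate 1 summit lay 114 bp inside the gene and its replicate 2 summit 73 bp outside, towards GSTF5, whose single summit is that replicate 2 peak. Pathogen-induced GSTF7, beside it, had replicate 1 summits only, of 2.15 and 1.93. The protein products of GSTF6 and GSTF7 are close relatives, as are those of GSTF2 and GSTF3. GSTF2 had replicate 1 summits of 1.97 and 1.91 and GSTF3 had none. The treatment of reads that match several places was not stated in any source used here, and why GSTF3 had no summit was not tested. GSTF12 (also TT19), needed to bring anthocyanins to the vacuole, had 1 replicate 1 summit of 1.39.

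All 3 theta genes carried shared summits, against 1.21 expected, and they lie side by side. GSTT1 encodes an enzyme of peroxisomes. Its peak in common with GSTT3 had folds of 1.68 (chr5:16493824-16494543) and 1.87, with the replicate 1 summit 30 bp inside GSTT1 and the replicate 2 summit between the genes. The second GSTT3 peak (chr5:16496940-16497574) had 2.27 and 2.02, with summits 18 bp outside and 78 bp inside the gene. The GSTT2 peak (chr5:16500769-16501226) had 2.08 and 1.64, with summits 130 and 107 bp outside it and near AT5G41250 as well. The 12 family counts include these 3 adjacent genes, and without them 9 of 44 GST genes had a shared summit against 13.1 expected, an alternative added after the values were seen.

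Of the lambda genes, GSTL2 (AT3G55040) had a shared peak at chr3:20400135-20400642 with folds of 1.70 and 2.14. Its summits lay 10 and 21 bp outside the gene and also near AT3G55050, with 77 fragments over 35.5 in replicate 2. GSTL1 and GSTL3 had replicate 1 summits only, the strongest a common one of 1.91 that lay 59 bp inside GSTL3 and 63 bp outside GSTL1. The zeta pair GSTZ1, whose enzyme isomerises maleylacetoacetate in tyrosine breakdown, and GSTZ2 shared 2 replicate 1 summits of 1.88 and 1.53 and had none in replicate 2. The expected number of zeta genes with a shared summit was 0.743.

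**Figure D2:**
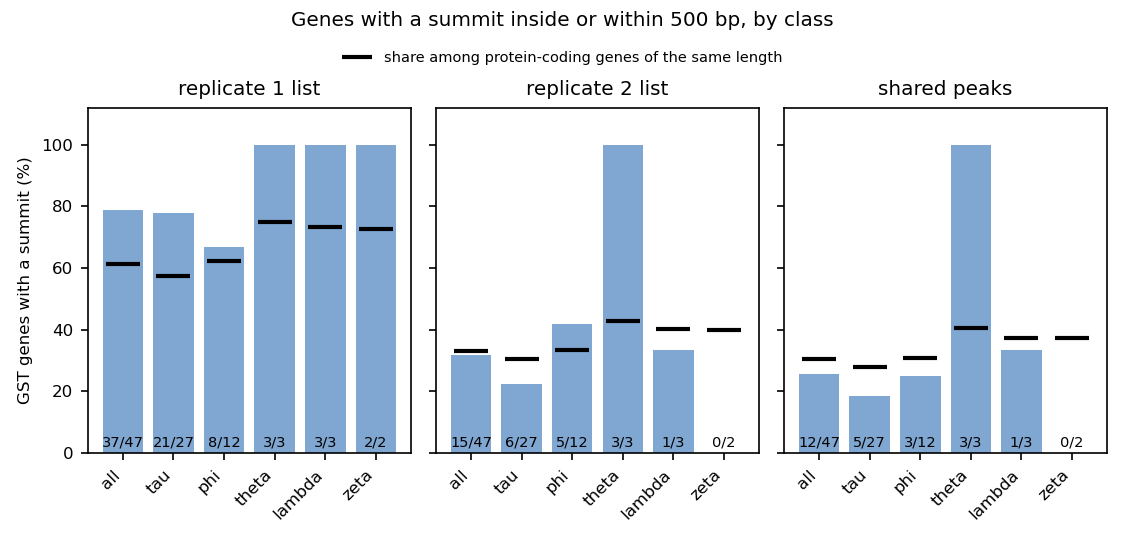
Share of GST genes (vertical axis, %) with a summit inside or within 500 bp, for all members and each class, in the replicate 1 list, the replicate 2 list and among shared peaks; bars give the share with the count at their foot, and black marks give the share among genes of the same length. In replicate 1 the bars of all 5 classes stand above the marks, and among shared peaks only that of the 3 theta genes does.

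Among genes without a shared summit, the strongest replicate 1 peaks were those of GSTU1 with 2.20, GSTF7 with 2.15, GSTU8 with 2.07, GSTU9 with 1.98 and GSTF2 with 1.97. In replicate 2 only 3 such genes had a summit, GSTU11 with 2.12, GSTF9 with 1.91 and GSTF5 with 1.75. GSTU1 and GSTU8 thus exceeded several shared peaks in that list without a counterpart in replicate 2. GSTU8 alone had 4 replicate 1 summits, the most of any member. The 24 genes with replicate 1 summits only had strongest folds from 1.32 to 2.20 with a median of 1.83, and the 12 genes with a shared summit had 1.68 to 2.71 with a median of 2.24. Over all genes the corresponding medians were 1.74 and 2.15.

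Most replicate 1 peaks at GST genes had no partner in replicate 2. Of the 59 distinct peaks 12 were shared (20.3%), against 41.2% of the 20391 replicate 1 peaks near any protein-coding gene. Of the 59, 20 had a fold under 1.6 and none of these was found again, against 15.0% of all such peaks. All 5 GST peaks of 2.3 or more were found again, against 85.0%. Taking the share of all peaks in each of 5 ranges of fold would give 20.5 shared peaks in place of 12. The ranges were chosen after the values had been seen, and the difference was not tested. In the other direction, 14 of the 15 replicate 2 peaks at GST genes were found again in replicate 1, against 88.9% of that list.

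**Figure D3:**
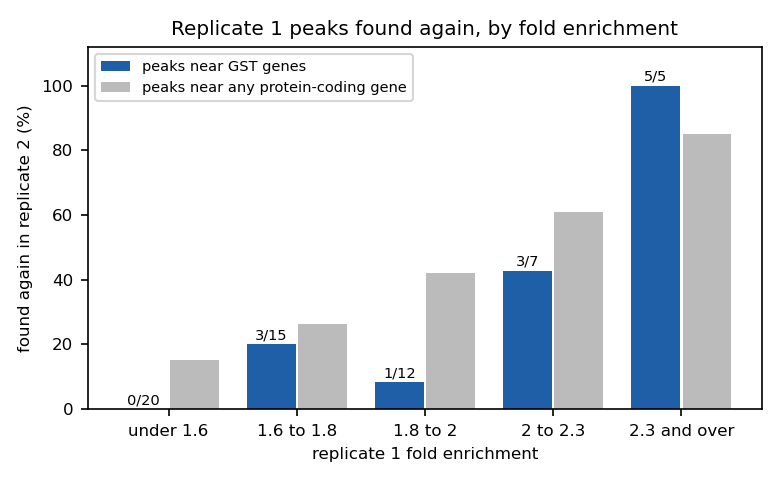
Share of replicate 1 peaks found again in replicate 2 (vertical axis, %) by replicate 1 fold enrichment (horizontal axis), for peaks at GST genes (blue, with counts) and peaks near any protein-coding gene (grey). Below 2.3 the blue bars lie under the grey ones, from 0 of 20 in the weakest range to 3 of 7 between 2 and 2.3, and from 2.3 up 5 of 5 were found again.

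When only replicate 1 peaks with a fold of at least 2 were counted, 11 GST genes had a summit against 12.4 expected. With the strongest 13307 replicate 1 peaks, as many as replicate 2 holds, 23 had one against 17.7 expected. Both alternatives were added after the values were seen. With replicate 1 peaks of a −log10 q of at least 5 the count was 29 against 23.6. Summits inside the gene were found at 25 GST genes in replicate 1, against 36.1% of all genes and 14.2 expected, and tau genes made up 16 of these against 7.19 expected. In replicate 2 such summits were found at 6 GST genes, against 17.0% of all genes and 6.41 expected, and shared summits inside the gene at 6, against 15.3% and 5.77.

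Distances from the counted summits to gene ends are bounded by the 500 bp window and by the short genes, of median length 1381 bp. They were not set beside distances at genes of the same length, so they show no trait particular to GST genes. The median distance to the nearest end was 146.5 bp in replicate 1 and 107 bp in replicate 2. Of the gene-summit pairs, 9 of the 64 of replicate 1 and 1 of the 17 of replicate 2 lay inside the gene and more than 300 bp from both ends. The summit lay inside the gene in 50% of the pairs in replicate 1 and 35.3% in replicate 2, against 44.7% and 40.9% of the pairs over all protein-coding genes. The gene table gives no strand, so promoters and transcript ends could not be told apart. The summits of the 12 shared peaks lay 11 to 288 bp apart between the replicates, with a median of 87.5 bp.

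Tandem arrays held 34 of the 47 members in 11 groups, taken as members of a class on 1 chromosome with at most 3 other protein-coding genes between neighbours. Of these 34, 10 had a shared summit against 10.5 expected, 27 a replicate 1 summit against 21.1, and 13 a replicate 2 summit against 11.4. Of the 13 members outside arrays, 2 (GSTF8 and GSTL2) had a shared summit against 3.83 expected, 10 a replicate 1 summit against 7.77, and 2 a replicate 2 summit against 4.15. The 6 tau genes outside arrays had no shared summit against 1.63 expected. Arrays and single genes were not tested against each other.

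Shared summits lay at 1 gene in each of 5 arrays, against 0.605 to 1.93 expected. They lay at 2 of the 3 genes of the GSTU24 to GSTU26 group, against 0.844 expected, and at all 3 theta genes, against 1.21. The other 4 arrays had none, against 0.554 to 0.770 expected. In the summit counts of arrays that follow, a summit counts anywhere between the first and last gene or within 500 bp beyond them. The largest array holds the 7 tau genes from GSTU7 to GSTU1 over 14.6 kb of chromosome 2. It had 10 replicate 1 summits and 1 replicate 2 summit, at GSTU5, which was also its only shared one. By gene, 6 of its 7 had a replicate 1 summit against 3.97 expected, and 1 had a replicate 2 summit against 2.10. Over all genes replicate 1 summits were the more common too, at 66.7% against 37.0%. Next to GSTU5, GSTU4 had no summit in either list. The array of 5 tau genes from GSTU23 to GSTU19 on chromosome 1 spans 20.6 kb. It had 8 replicate 1 summits, of which 5 lay inside or within 500 bp of a member, and 1 replicate 2 summit, at GSTU19. By gene, 4 of its 5 had a replicate 1 summit against 2.76 expected, and 1 had a replicate 2 summit against 1.47. GSTU20, which has been linked to glucosinolate synthesis and jasmonate signalling, had only a replicate 1 summit of 1.55 there, and GSTU21 had none.

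The phi array from GSTF7 to GSTF4 had 4 replicate 1 summits and 1 replicate 2 summit over 7.89 kb, all at or beside GSTF7 and GSTF6. By gene, 2 of its 4 had a replicate 1 summit against 2.48 expected, and 2 had a replicate 2 summit against 1.33. The GSTF9 and GSTF10 pair had 4 and 2, and the GSTU24 to GSTU26 group had 4 and 2, of which 2 were shared. All genes of both groups had a replicate 1 summit, against 1.25 and 1.73 expected. In each, 2 genes had a replicate 2 summit, against 0.678 and 0.924 expected. The GSTU13 and GSTU14 pair had 3 replicate 1 summits, from 1.49 to 1.69, and none in replicate 2. Both genes thus had a replicate 1 summit, against 1.12 expected, and neither had a replicate 2 summit, against 0.604. GSTU13 has been placed in indole glucosinolate metabolism during immunity. GSTU15 and GSTU16 stood alone as an array with no summit in either list, against 1.30 genes expected in replicate 1 and 0.690 in replicate 2. The counts of single arrays were not tested.

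**Figure D4:**
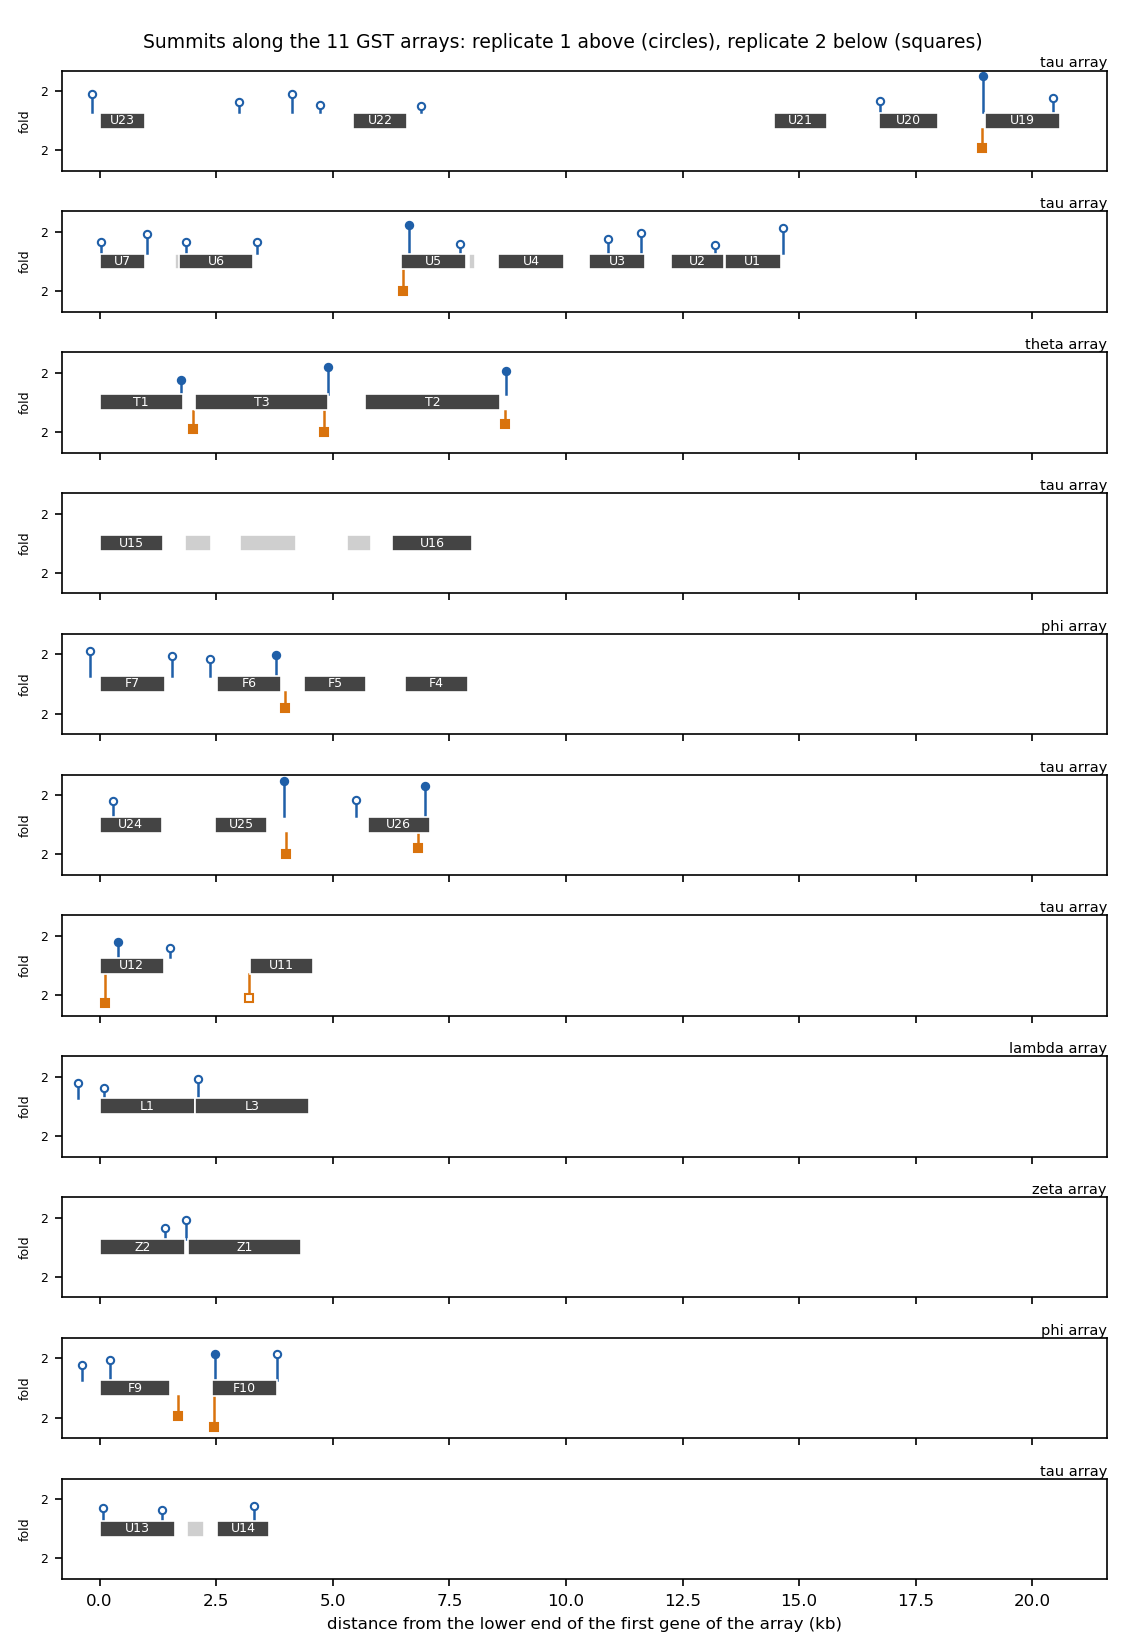
Peak summits along the 11 GST arrays, with distance from the lower end of the first gene on the horizontal axis (kb); dark boxes are GST genes (labelled without the letters GST), pale boxes other protein-coding genes, and stems stand for summits of replicate 1 (above) and replicate 2 (below), their length giving the fold enrichment above 1. Filled symbols mark peaks with a partner in the other list, and in the theta array all 6 symbols are filled.

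Of the genes named GST only in their synonyms, ATGSTF13 had a shared peak at chr3:23218289-23218735 with folds of 1.53 and 1.84. Its summits lay 175 and 192 bp outside the gene, and the autophagy gene AtATG18a lies within 500 bp of them too. ERD9, a tau gene that responds to dehydration, had 1 replicate 1 summit of 1.56, which it shares with GSTU18. With these genes included, 13 of 49 had a shared summit against 14.8 expected, 39 a replicate 1 summit against 29.9 and 16 a replicate 2 summit against 16.1.

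Counts for long and short members were also set beside expectation, without a test. Of the 8 members over 1800 bp, 4 had a shared summit against 3.15 expected, and of the 39 shorter ones 8 had one against 11.2 expected. The bound of 1800 bp was chosen after the values were seen. GSTL2 (1809 bp) and GSTT1 (1785 bp), both with a shared summit, lie close to it on either side.

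Of 30 other genes of glutathione metabolism 15 had a shared summit, against 34.2% of all genes and 11.5 expected from genes of their length. A replicate 1 summit lay at 27 of them against 22.0 expected, and a replicate 2 summit at 15 against 12.4. Both genes of glutathione synthesis had a shared summit, against 0.841 expected, with GSH1 at 1.79 and 1.93 and GSH2 at 1.45 and 1.78. Both glutathione reductase genes had one, against 0.859 expected. GR1 had 2.77 and 2.31 (near AT3G24180 as well) and GR2 (GR in the table) 1.88 and 1.72. Of the 8 glutathione peroxidase genes 5 had one, against 2.79 expected. By the lower of the replicate folds the best were GPX2 with 2.18 and 2.46 and GPX5 with 1.85 and 1.89. The GPX3 peak had 2.60 in replicate 1 and 1.72 in replicate 2. Other genes near the peroxidase peaks are the noncoding RNA gene AT2G08440 (GPX2), AT3G63070 (GPX5) and BIO2 (GPX3). Of 7 genes of glutathione breakdown 4 had one, against 2.71 expected. The strongest was at GGCT2;3 (AT1G44790), which encodes a cyclotransferase that splits glutathione in the cytosol. Its peak (chr1:16913367-16913937) had 2.73 and 2.72 and is also near SIAR1. GGT1, an apoplastic transpeptidase gene, had 2.37 and 2.23 (near AT4G39630 as well) and OXP1, the oxoprolinase gene, 1.88 and 2.24.

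Among the remaining genes of that list, TCHQD, another gene of the GST fold, had 2.31 and 2.65. DHAR1, DHAR2 and DHAR3, whose enzymes recycle ascorbate, had no shared summit. This made 1 of these 4 genes of the GST fold, against 1.28 expected. ABCC1, a vacuolar pump for glutathione conjugates, had 1.75 and 1.86. It was the only transport gene of 5 with a shared summit, against 2.15 expected. The phytochelatin synthase genes PCS1 and PCS2 had replicate 1 summits only, where 0.852 were expected to have a shared one. The groups by role hold few genes and were not tested. The difference between GST genes and this list was not tested either.

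The same counts in other large families of detoxifying enzymes gave 49 of 229 cytochrome P450 genes with a shared summit against 86.2 expected, and 22 of 58 UGT glycosyltransferase genes against 20.6. For replicate 1 alone the P450 count was 129 against 167 and the UGT count 41 against 40.8, whereas the GST count was above expectation. These families were not tested against each other.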

How the data were processed

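Chromatin immunoprecipitation was followed by sequencing in 2 DEK2-YFP immunoprecipitates, and the authors' peak lists, 1 per sample, were the data used. TAIR10 is the build, and MACS2 2.2.7.1, SAMtools 1.9, Bowtie2 2.3.5 and Trimmomatic 0.38 are the tools, per the submitters' processing notes. Settings, the control used and the handling of duplicates are not given in the sources used here. The deposited lists have no header, and columns were read by the narrowPeak layout. The deposited score is a whole number made from the q-value, the fold enrichment is a deposited ratio of summit height to background, and the deposited p-value and q-value columns are −log10 values. The lowest deposited −log10 q was 1.31 in replicate 1 and 1.30 in replicate 2.

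Gene spans and names came from a RefSeq table of TAIR10.1 with 37899 nuclear genes. It holds neither strand nor sequence, its coordinates are not printed, and the planned motif counts in promoters were not made. Peak coordinates are TAIR10, counted from 1. Peaks and gene spans were taken to share nuclear coordinates. Expected numbers are the sums, over members, of the share of genes with a summit in the member's bin of gene length (20 bins). Whole fragment numbers in replicate 2 were solved, within 0.02, from fold and p-value under MACS2's formulas. The other glutathione genes were matched by locus (30 of 30).

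Every member with a shared summit is named, of the rest the 5 with the highest fold in each list, members without a summit, the best 8 of the other glutathione genes by the lower fold, and genes whose 500 bp window holds the same summit as a member. Further members and genes, named to account for classes, arrays and roles, were picked with their values in view. The members and lists were chosen with earlier results of these data known. Alternatives changed overlap, threshold, window, members, arrays, bins and replicates. Python 3.11.15, pandas 2.3.3 and scipy 1.17.1 were used, and the code was tested on simulated peaks.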

Additional observations from a re-analysis of the deposited data

How the results depend on the processing

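The counts per class and array are small, and the read depth of either replicate is not known. The number of GST genes with a shared summit was 12, and it became 2 (6.86 expected) when the overlap had to reach 50% of both peaks, 3 (5.17) at a −log10 q of at least 5 and 6 (5.77) for summits inside the gene. Without a replicate it was 15 (replicate 2 alone, 15.5 expected) or 37 (replicate 1 alone, 28.8 expected). Both the count and the number expected thus depend on which list is used. The replicate 2 count of 15 became 3 (5.63 expected) at that q and 6 (6.41) inside the gene. The count of 13 with summits of both lists became 3 (5.27) and 4 (4.84) under these rules. The replicate 1 count of 37 became 11 (12.4 expected) at a fold of at least 2 and 23 (17.7) with the strongest peaks, both added after seeing the data. In arrays the count of 10 became 2, 2 and 6 under the same overlap, q and inside rules, against 5.04, 3.81 and 4.26 expected. Without a replicate it was 13 (replicate 2 alone, 11.4 expected) and 27 (replicate 1 alone, 21.1 expected). The 15 other glutathione genes became 8 (5.32 expected) inside the gene, 7 (5.72) by overlap of both peaks and 6 (4.18) at that q. Each of these counts stayed above expectation, as did the 15 (11.5 expected). The cause of the changes in count was not tested, apart from the rules themselves being stricter. A window of 1000 bp and synonyms kept the GST counts of shared, replicate 1, replicate 2 and both lists and the array count within 1.5 times. So did any overlap for the shared and array counts, other array definitions for the array count and 10 length bins for the ratios of observed to expected. These alternatives were not run for the other glutathione genes. Among classes, the tau count of 5 shared became 1 (3.52 expected) by overlap of both peaks, 1 (2.65) at that q and 3 (2.84) inside the gene. The phi count of 3 became 0 (1.76 expected), 1 (1.36) and 2 (1.51). With a window of 1000 bp it became 5, above the 4.48 expected there. The theta count of 3 became 1 (0.638 expected), 0 (0.445) and 1 (0.593), and the lambda count of 1 became 0 (0.554), 1 (0.431) and 0 (0.504). No paired analysis was possible because the data hold a single group of 2 immunoprecipitates.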

Other observations

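Several peaks at GST genes also lie within 500 bp of other genes. Of the 59 distinct replicate 1 peaks at members 29 also had another gene within 500 bp, and 5 lay at 2 or more members. In replicate 2 this held for 5 and 2 of 15 peaks. The same shares over all peaks near protein-coding genes were not computed, so these counts cannot be read as a trait of GST genes. The neighbours include TOC159, an import receptor gene of chloroplasts, beside both replicate 1 summits of GSTF2, and PSY, the gene of the first committed enzyme of carotenoid synthesis, beside that of GSTF12. SWAP70 lies beside the second replicate 1 peak of GSTF10 (2.19, chr2:13142128-13143075) and LPA1, a photosystem assembly gene, beside a GSTF7 peak of 2.15. Protein-coding neighbours of other replicate 1 peaks are OTP87 at GSTU10, MTPB1 at GSTU7, HVA22B at GSTU9, PGPS2 at GSTL2, AT1G17160 at GSTU24, AT1G27150 at GSTU14, AT1G49870 at GSTF14, AT2G29430 at GSTU6, AT2G29452 at GSTU5, AT2G29485 at GSTU1 and GSTU2, AT2G29500 at GSTU1, AT2G47710 at GSTF8 and AT4G02530 at GSTF2. The genes of noncoding RNAs are AT1G06043 at GSTU13, AT2G08340 and AT2G00850 at GSTU7 and AT3G02145 at GSTU8. For these peaks the data do not say which gene they belong to.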
